A study of Homo sapiens with 6 samples.

Results

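The 36 mitosis genes described here are protein-coding genes whose products drive or carry out cell division. They were chosen by name and found by Ensembl identifier among the 27134 genes of the deposited table, and all 36 were present and abundant enough to be tested. The RNA came from KM12, a long-established line of human colorectal cancer cells. In 3 libraries the cells overexpressed CDO1, and 3 libraries came from mock control cells of the same line. All cells were at passages 10 to 15. Cysteine dioxygenase, the product of CDO1, turns cysteine into its sulfinate. The vector, the promoter that drove CDO1 and whether each group was 1 clone are not stated in the labels. Nor do the labels say whether the 3 libraries of a group were separate cultures, and p-values here rest on the spread among these libraries, which may be technical.

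Entry into mitosis is set by cyclin A2 and the B-type cyclins bound to the kinase CDK1, which CDC25 phosphatases switch on. Polo and Aurora kinases, kinesin motors and microtubule-binding proteins then build the spindle, and kinetochore proteins attach chromosomes to it. The spindle checkpoint holds back CDC20, the activator of the anaphase-promoting complex, a ubiquitin ligase whose destruction of securin and cyclin B opens anaphase. Transcripts of most of these genes peak in the G2 and M phases. Many of their promoters are bound by MuvB complexes, with the repressors of the DREAM complex in quiescent or p21-arrested cells and with MYBL2 and FOXM1 in dividing cells. In bulk RNA, the share of cells in G2 or M and the amount of each transcript per cell cannot be told apart.

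The 36 genes stayed close to their mock level in the cells with CDO1, and those that moved did so in both directions and by less than 20%. By limma with Benjamini-Hochberg adjustment at 0.05 over all 21775 genes tested, 4 rose, 6 fell and 26 did not pass. TOP2A, ASPM, KIF11 and CENPA were higher, and BIRC5, UBE2C, CDC20, CDC25B, CENPF and NDC80 were lower. The 10 called genes are 27.8% of the list, against 24% of all genes tested (11.3% higher and 12.7% lower) and 35.7% of the 7708 genes at least as abundant as the scarcest member. The share called in the list lies between these 2 backgrounds. Its median log2 fold change was -0.02, with a range of -0.25 to 0.25, and the median over all genes tested was 0.00. The median absolute log2 fold change was 0.09 in the list, against 0.24 over all genes tested and 0.12 in the equally abundant genes. With a minimum fold of 1.2 added to the test no member was called, where 18.2% of all genes tested and 19.9% of the equally abundant genes were. With no minimum fold, edgeR called 11 members, against 35.7% of the genes it tested.

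The count of called members moved with the library left out, as did the share of all genes called in the same fit. Without CDO1 replicate 1 it was 2 higher and 3 lower (18.3% of genes), without CDO1 replicate 2 it was 4 and 4 (20.3%), and without CDO1 replicate 3 it was 1 and 3 (18.5%). Without mock replicate 1 it was 2 and 2 (17.9%), without mock replicate 2 it was 4 and 7 (22.5%), and without mock replicate 3 it was 6 and 5 (25%). In either direction, 15 members were called with a GC trend removed from each library (29.7% of genes), 13 with a replicate block (27.2%) and 16 with both (30.4%). With equal library totals 12 members were called (23.6% of genes), DESeq2 called 9 (28.6%), the authors' deposited table held 9 (15.9%), and 3 passed an adjusted p of 0.01 (15.9%). These shares are over all genes of each fit. The equally abundant genes had a higher share called in the main fit, 35.7% against 24%. With the GC trend removed, 2361 of those 7708 genes were higher and 1272 lower. Calls for TOP2A, BIRC5 and UBE2C held under each of the 19 alternatives that refit the data or take the authors' deposited values, leaving out each library included. The sum of the 36 genes showed the same balance. It was 99376, 97061 and 102038 normalised counts in CDO1 replicates 1, 2 and 3, against 100810, 98813 and 104553 in mock replicates 1, 2 and 3. The groups overlap in this sum, and their means, 99492 ± 2491 with CDO1 and 101392 ± 2914 in mock (SD, n = 3 each), lie within 1 SD of each other. As a share of all assigned reads the members took 0.491% ± 0.0117 with CDO1 and 0.510% ± 0.0167 in mock (SD, n = 3 each), where the groups again overlap but the means lie further apart than either SD.

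**Figure D1:**
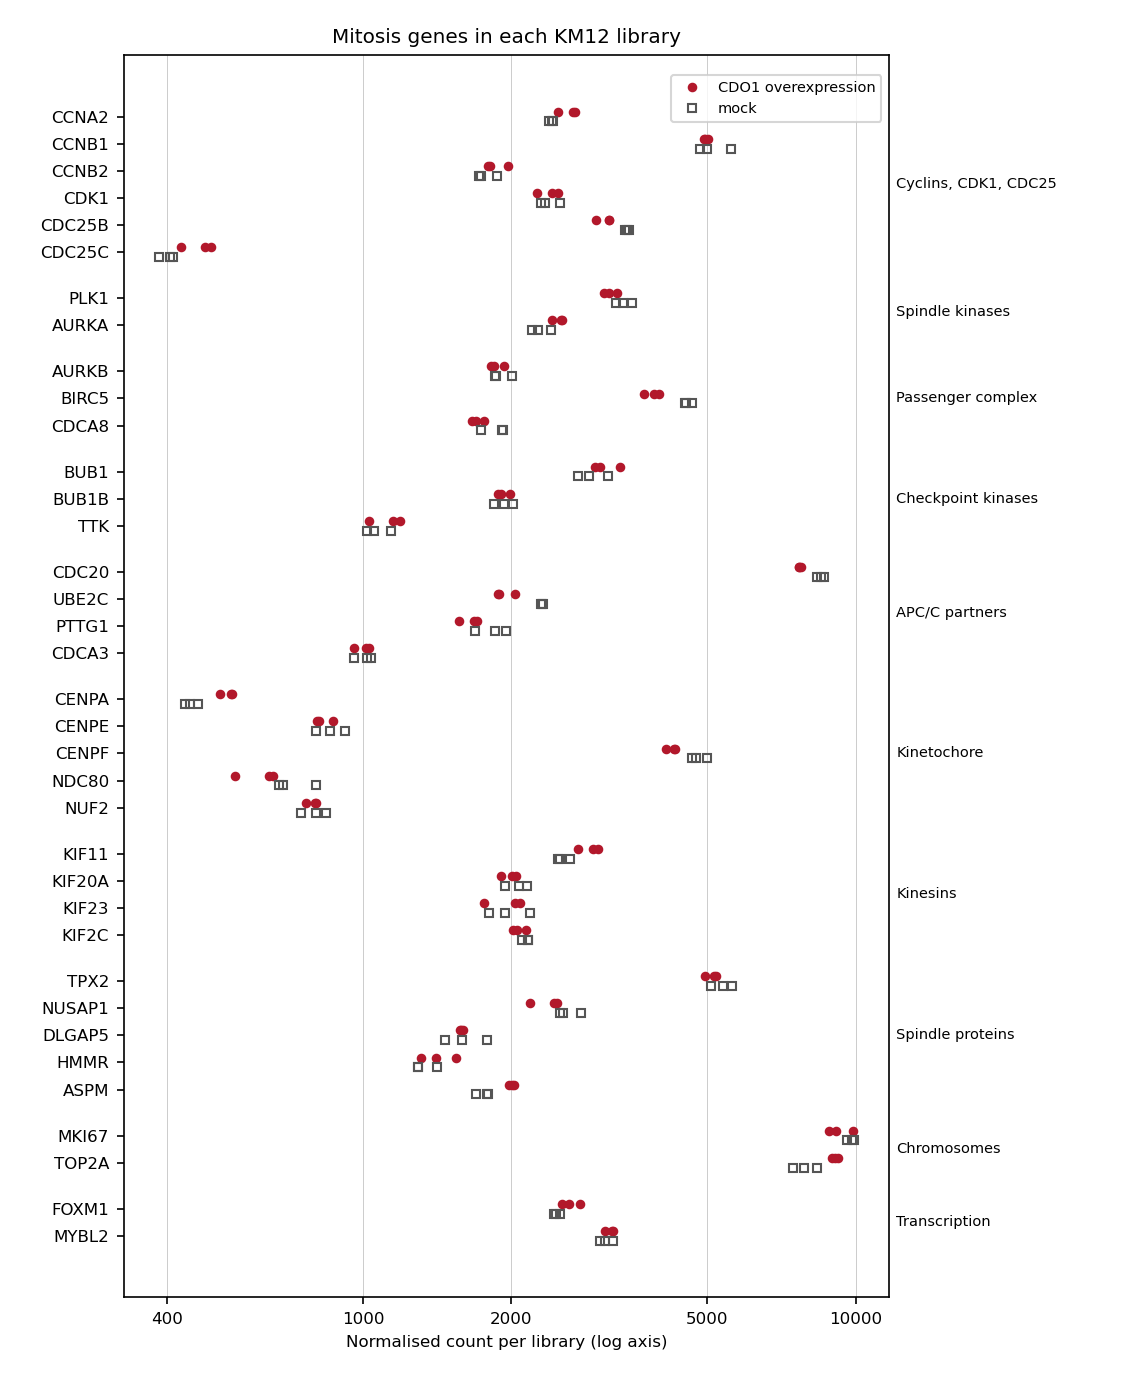
Normalised count of each mitosis gene in each library on a log axis, with genes grouped by role (filled red circles CDO1 overexpression, open grey squares mock, 3 libraries each). The groups do not overlap in 15 of 36 genes, 8 higher and 7 lower with CDO1. That compares with 37.1% of all genes tested and 49.4% of those at least as abundant as the scarcest member. MKI67, TOP2A and CDC20 lie at the top of the scale.

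All 6 libraries were deep for these genes. Reads assigned to genes totalled 17516640 to 22198173 per library, and the scarcest member, CDC25C, still had 364 reads in its lowest library. CDO1 checked the labels: it had 2519, 2134 and 2540 reads in the CDO1 libraries, against 76 reads in mock replicate 1 and 0 in mock replicates 2 and 3, where 0 reads leave room for up to 3. Limma called CDO1 higher (log2 fold change 9.18, adjusted p = 2.74e-07), as did DESeq2 on recovered reads (6.71, adjusted p = 0.0241). The authors' deposited comparison, also used here as an alternative, gave CDO1 0.09 and did not call it (adjusted p = 0.416). Why it differs was not tested. Of 12 colorectal epithelial markers all were measured, 9 rose and none fell by limma at 0.05, where 3 did not pass. Their summed level was 194294 to 208111 normalised counts with CDO1 and 144635 to 153162 in mock, with CDX1 near 0 at means of 4.44 and 4.20. Markers of other cell types were scarce, with COL1A1 the most abundant, at 91.8 to 111 with CDO1 and 184 to 257 in mock. They moved both ways: COL1A1, a fibroblast collagen, fell, and PECAM1, an endothelial marker near 0, rose, at 5.92, 6.57 and 6.43 with CDO1 and 0, 1.95 and 2.26 in mock (log2 fold change 1.78, adjusted p = 0.0259, limma). Without any 1 CDO1 library or mock replicate 1, PECAM1 did not pass (adjusted p up to 0.117). The other 5 measured did not pass. The 7 of 12 that were measured summed to 163 to 199 normalised counts with CDO1 and 265 to 349 in mock, and the part of either marker set in the results for mitosis genes was not tested. The log2 fold change correlated negatively with GC content over the 10926 genes whose mean was 100 or more (Spearman's rho -0.23), a description across genes that share 6 libraries.

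Many promoters of mitosis genes carry 2 sequence elements that MuvB complexes and the factor NF-Y are known to bind. They are shown here for 4 of the called genes with both, TOP2A and ASPM, which rose, and CDC20 and CENPF, which fell. Each line gives the 250 bases before the RefSeq transcription start on the gene's own strand, 5′ to 3′, from GRCh38.p14. Capitals mark the CCAAT box, written CCAAT or ATTGG on the other strand, and the cell cycle homology region, written TTTGAA or TTCAAA on the other strand. The elements do not overlap one another in these stretches. The positions are chr17:40417897-40418146 on the minus strand for TOP2A, chr1:197146670-197146919 on the minus strand for ASPM, chr1:43358731-43358980 on the plus strand for CDC20 and chr1:214602945-214603194 on the plus strand for CENPF.
TOP2A: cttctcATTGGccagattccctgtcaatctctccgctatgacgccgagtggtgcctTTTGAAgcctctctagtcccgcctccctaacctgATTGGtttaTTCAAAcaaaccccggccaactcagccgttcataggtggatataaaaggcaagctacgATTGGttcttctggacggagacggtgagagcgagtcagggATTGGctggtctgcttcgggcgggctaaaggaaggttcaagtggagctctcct
ASPM: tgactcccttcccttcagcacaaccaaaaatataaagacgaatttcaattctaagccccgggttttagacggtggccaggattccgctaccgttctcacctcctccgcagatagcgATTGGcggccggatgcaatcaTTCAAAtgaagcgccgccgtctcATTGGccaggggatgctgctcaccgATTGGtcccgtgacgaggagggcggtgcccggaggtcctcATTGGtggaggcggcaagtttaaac
CDC20: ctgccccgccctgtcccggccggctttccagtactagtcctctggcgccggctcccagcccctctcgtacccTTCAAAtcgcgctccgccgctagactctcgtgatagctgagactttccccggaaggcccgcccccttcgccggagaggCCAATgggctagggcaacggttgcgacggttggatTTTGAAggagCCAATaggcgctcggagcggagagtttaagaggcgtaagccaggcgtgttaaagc
CENPF: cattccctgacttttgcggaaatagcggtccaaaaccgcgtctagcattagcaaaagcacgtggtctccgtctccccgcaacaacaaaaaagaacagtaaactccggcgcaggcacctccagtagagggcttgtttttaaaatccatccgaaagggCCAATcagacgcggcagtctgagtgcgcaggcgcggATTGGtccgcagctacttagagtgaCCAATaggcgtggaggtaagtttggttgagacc

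TOP2A and ASPM each have 4 CCAAT boxes in this stretch, CDC20 has 2 and CENPF has 3. CDC20 has TTTGAA 65 bases before its start, ahead of a CCAAT box at 55 bases. In CENPF a further ATTGG and a TTTGAA begin 13 and 41 bases after the start, outside the stretch shown. RefSeq windows of 300 bases, 250 before and 50 after a start, were at hand for 30 members. AURKA, BIRC5, FOXM1, TPX2, TTK and UBE2C are the other 6. Among these 30 members 24 had a CCAAT box, 20 had TTTGAA and 17 had both, on either strand and in any of a gene's windows. These are shares of 80%, 66.7% and 56.7%, against 41.7%, 14.5% and 7.51% of the 14431 genes of the table with a window. Both elements stood in 4 of the 4 members that rose, 2 of the 4 that fell and 11 of the 22 that did not pass. CDC20 and CENPF, shown above, are the 2 that fell with both, while CDC25B had no TTTGAA and NDC80 no CCAAT box. A match is a description of the letters in the window, not of a bound site.

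Among the cyclins, CDK1 and its activating phosphatases, 1 of 6 genes passed the test, where 24% of all genes tested did. CDC25B, the phosphatase that starts CDK1 activation at the centrosome (ENSG00000101224, GRCh38 chromosome 20, 3786772 to 3806121), had 2974, 3163 and 3158 normalised counts in the CDO1 libraries, against 3438, 3463 and 3397 in the mock libraries. The groups do not overlap, and its log2 fold change was -0.15 ± 0.05 (SE; adjusted p = 0.0372, limma). The call ended without CDO1 replicate 1 (adjusted p = 0.19), CDO1 replicate 3 (0.077), mock replicate 1 (0.136) or mock replicate 2 (0.0535), and with the GC trend removed (0.293), over a range of 0.0128 to 0.293 across the alternatives. CDC25C, the phosphatase that completes the switch, had a fold change of the other sign. It had 427, 477 and 492 normalised counts with CDO1, against 384, 405 and 412 in mock. These groups do not overlap either, yet the log2 fold change of 0.22 ± 0.08 (SE) missed the threshold narrowly (adjusted p = 0.053, limma). CDC25C passed in 8 of 19 alternatives, among them edgeR (adjusted p = 0.0369), the replicate block (0.0276), the fit without CDO1 replicate 1 (0.0342) and the fit without mock replicate 3 (0.0463), over a range of 0.0276 to 0.215. It had the lowest mean count of the 36, and its 95% interval ran from 0.05 to 0.38.

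CDK1 itself, the kinase of mitotic entry, had 2417, 2487 and 2255 normalised counts with CDO1, against 2341, 2303 and 2506 in mock. The libraries of both groups are intermingled, and the 95% interval of its log2 fold change ran from -0.12 to 0.12. CCNA2, the cyclin of S phase and early mitosis, averaged 2618 ± 112 with CDO1 and 2409 ± 23.9 in mock (SD, n = 3 each), with no overlap and a log2 fold change of 0.12 (adjusted p = 0.112, limma). CCNB1 and CCNB2, the B-type partners of CDK1, stood at -0.05 and 0.07 on the log2 scale, with intervals of -0.16 to 0.07 and -0.06 to 0.19. The counting cannot be said to separate strands, and 9.08% of the CCNA2 exon sequence is shared with EXOSC9 on the other strand, as 8.78% of CDC25C is with FAM53C.

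Neither kinase of the centrosome and spindle passed. AURKA, which matures centrosomes, averaged 2495 ± 62.1 normalised counts with CDO1 and 2292 ± 103 in mock (SD, n = 3 each), a log2 fold change of 0.12 (adjusted p = 0.109, limma) with no overlap between groups. It passed without mock replicate 3 (adjusted p = 0.0361, limma). PLK1, which acts from mitotic entry to cytokinesis, averaged 3174 ± 97.0 with CDO1 and 3381 ± 124 in mock, and its groups overlapped.

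The chromosomal passenger complex corrects faulty attachments of chromosomes and later guides cytokinesis. Of its 3 members here 1 fell, against 12.7% of all genes tested. BIRC5, which encodes survivin, the subunit that brings the complex to the inner centromere and is also known as an inhibitor of apoptosis (ENSG00000089685, chromosome 17, 78214186 to 78225636), had 3899, 3718 and 3994 normalised counts with CDO1, against 4526, 4502 and 4664 in mock. Every CDO1 library lay below every mock library. The log2 fold change was -0.24 ± 0.05 (SE; adjusted p = 0.00128, limma), a fall of 15.2% in the mean, and the adjusted p lay between 1.15e-05 and 0.0121 across the alternatives. CDCA8, the borealin subunit, had a log2 fold change of -0.12 (adjusted p = 0.139, limma, and 0.0296 without mock replicate 2) and overlapping groups. AURKB, the kinase of the complex, averaged 1865 ± 58.2 with CDO1 and 1907 ± 84.0 in mock (SD, n = 3 each), with an interval of -0.15 to 0.08 on the log2 scale. Whether the 3 subunits differ in their change was not tested.

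None of the 3 spindle checkpoint kinases passed. BUB1, BUB1B and TTK, which act at kinetochores that are not yet attached, had log2 fold changes of 0.09, 0.00 and 0.07, and in each the groups overlapped. BUB1B averaged 1926 ± 57.9 with CDO1 and 1931 ± 83.2 in mock (SD, n = 3 each), with an interval of -0.12 to 0.11.

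Of 4 genes that work with or are destroyed through the anaphase-promoting complex, 2 fell, where 12.7% of all genes tested were lower. UBE2C, the ubiquitin-conjugating enzyme that starts chains for this ligase (ENSG00000175063, chromosome 20, 45812576 to 45816957), had 1891, 1880 and 2039 normalised counts with CDO1, against 2294, 2307 and 2317 in mock. It showed the largest fall of the list, 16.0% in the mean, with no overlap and a log2 fold change of -0.25 ± 0.05 (SE; adjusted p = 0.0014, limma). Over the alternatives its adjusted p lay between 2.07e-05 and 0.0142. CDC20 (ENSG00000117399, chromosome 1, 43358955 to 43363203), whose promoter is shown above, had 7666, 7693 and 7737 with CDO1, against 8507, 8637 and 8362 in mock. The 3 CDO1 libraries are close together and lie below all mock libraries, at a log2 fold change of -0.14 ± 0.05 (SE; adjusted p = 0.0309, limma). That call was lost with any single library left out except mock replicate 3, at an adjusted p of 0.106, 0.0615 and 0.0946 without CDO1 replicates 1, 2 and 3 and of 0.132 and 0.052 without mock replicates 1 and 2. It was 0.125 with the GC trend removed, over a range of 0.00767 to 0.132. PTTG1, the securin that holds back separase, stood at -0.15 ± 0.06 (SE; adjusted p = 0.0871, limma, and 0.0107 without mock replicate 2) with overlapping groups. CDCA3, a trigger of mitotic entry, averaged 1001 ± 38.5 with CDO1 and 1005 ± 40.0 in mock (SD, n = 3 each). Processed pseudogenes can take reads from these genes: CDC20P1 averaged 18.6 normalised counts, UBE2CP1 0.540 and UBE2CP2 0.812.

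**Figure D2:**
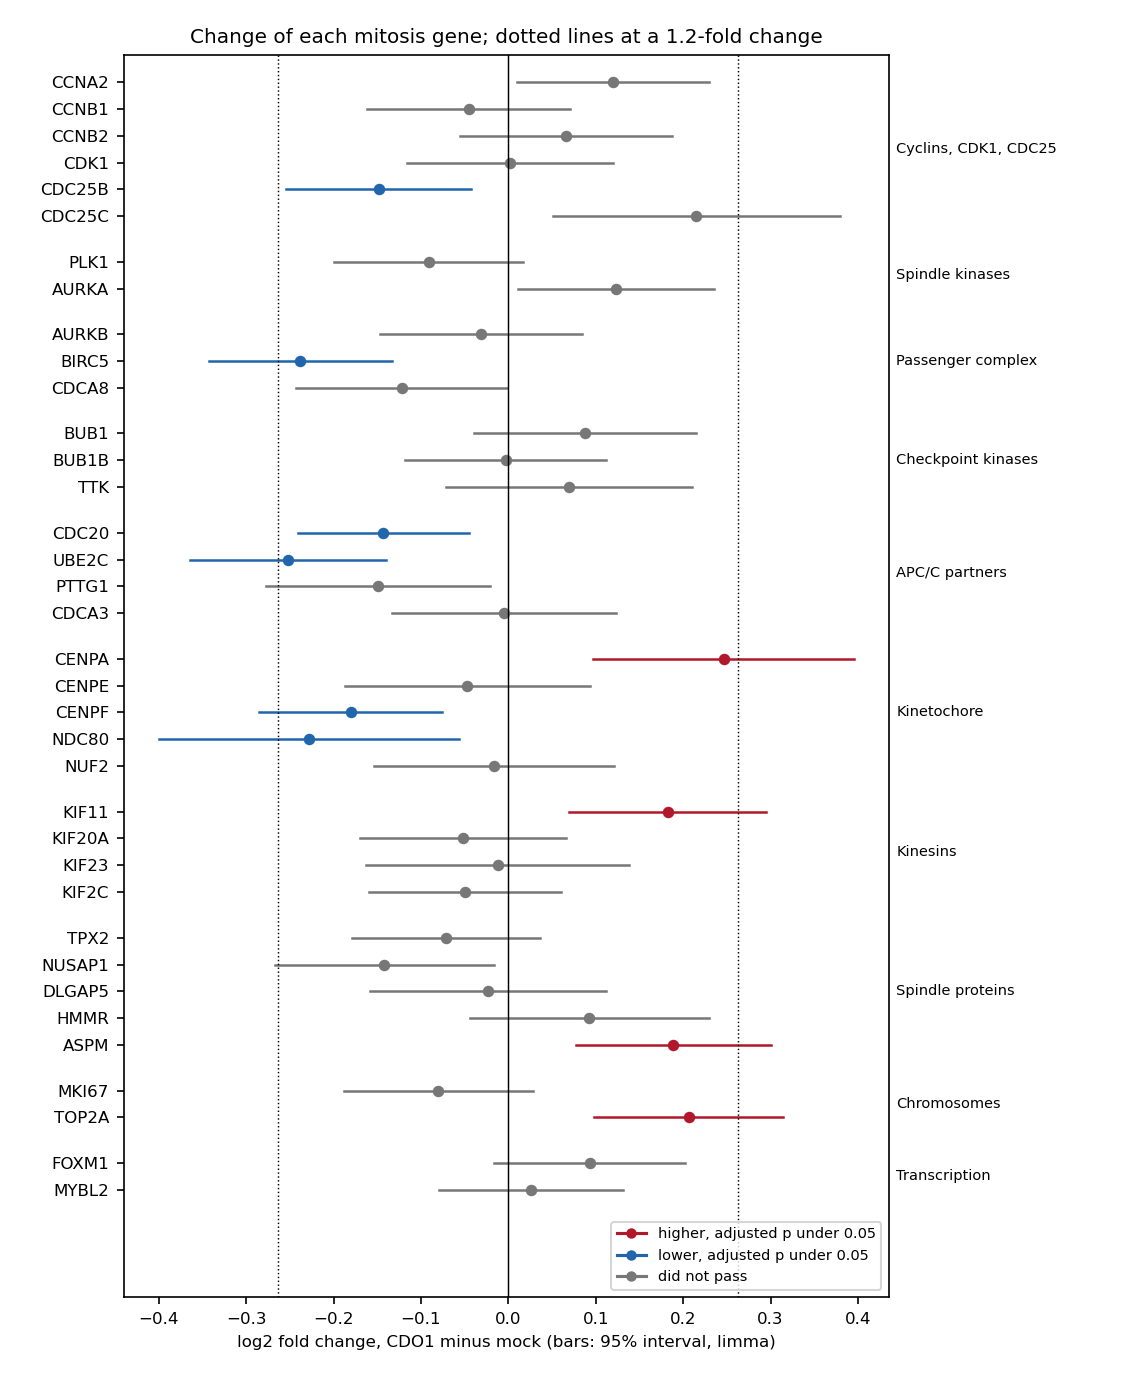
Change of each mitosis gene on the log2 scale (CDO1 minus mock) with its 95% interval from limma, by role, with dotted lines at a 1.2-fold change. The 4 genes in red rose and the 6 in blue fell at an adjusted p under 0.05, every point lies inside the dotted lines, and 25 of 36 intervals do so whole.

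Among 5 centromere and kinetochore genes 1 rose and 2 fell, where 24% of all genes tested were called. Of the 38 other kinetochore, centromere and checkpoint genes described below, 26.3% were called. CENPA, the histone variant that marks centromeres (ENSG00000115163, chromosome 2, 26764289 to 26801067), had 538, 511 and 543 normalised counts with CDO1, against 445, 435 and 462 in mock. It had the largest rise of the list, 18.7% in the mean, with no overlap and a log2 fold change of 0.25 ± 0.07 (SE; adjusted p = 0.015, limma). The call ended without CDO1 replicate 1 (adjusted p = 0.0641), CDO1 replicate 3 (0.0693) or mock replicate 1 (0.0619), in a range of 0.00803 to 0.0693. Its exons share 6.96% of their length with SLC35F6 on the same strand.

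CENPF, a large protein of the kinetochore corona (ENSG00000117724, chromosome 1, 214603195 to 214664588), had 4285, 4122 and 4294 normalised counts with CDO1, against 4741, 4659 and 4993 in mock. All CDO1 libraries were lower, at -0.18 ± 0.05 (SE; adjusted p = 0.0115, limma), and only leaving out mock replicate 1 took the adjusted p over the threshold, to 0.0517, in a range of 2.39e-05 to 0.0517. NDC80, which grips the microtubule end (ENSG00000080986, chromosome 18, 2571511 to 2616635), had 644, 548 and 656 with CDO1, against 675, 687 and 804 in mock. The groups are separated by a small gap, at -0.23 ± 0.08 (SE; adjusted p = 0.0493, limma). It lost its call without any single library but mock replicate 2. The adjusted p was 0.0681, 0.258 and 0.0523 without CDO1 replicates 1, 2 and 3 and 0.057 and 0.204 without mock replicates 1 and 3, and DESeq2 and the authors' deposited table did not call it. NUF2, which pairs with NDC80 in one rod-shaped complex, averaged 789 ± 20.5 with CDO1 and 799 ± 47.1 in mock (SD, n = 3 each). The difference between these partners was not tested. CENPE, the kinesin that carries chromosomes to the spindle equator, had a log2 fold change of -0.05 with an interval of -0.19 to 0.09.

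Of 4 kinesin motors, 1 rose, where 11.3% of all genes tested were higher. KIF11, the motor that pushes spindle poles apart (ENSG00000138160, chromosome 10, 92593286 to 92655395), had 3003, 2730 and 2931 normalised counts with CDO1, against 2492, 2509 and 2628 in mock. The lowest CDO1 library lies above the highest mock library, at 0.18 ± 0.05 (SE; adjusted p = 0.0168, limma). It did not pass without CDO1 replicate 1 (adjusted p = 0.109), CDO1 replicate 3 (0.0816) or mock replicate 1 (0.101), in a range of 0.00462 to 0.109. KIF20A and KIF23, which work in the central spindle and cytokinesis, and KIF2C, which takes microtubules apart at centromeres, had log2 fold changes of -0.05, -0.01 and -0.05 with overlapping groups.

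Of 5 spindle microtubule proteins, 1 rose, against 11.3% of all genes tested. ASPM, which focuses spindle poles (ENSG00000066279, chromosome 1, 197084128 to 197146694), had 2009, 1978 and 2022 normalised counts with CDO1, against 1793, 1693 and 1787 in mock. The CDO1 libraries lie close together and above all mock libraries, at 0.19 ± 0.05 (SE; adjusted p = 0.0126, limma). The adjusted p was 0.053 without CDO1 replicate 1 and 0.0605 without CDO1 replicate 3, in a range of 0.00403 to 0.0605. NUSAP1, which bundles microtubules near chromatin, averaged 2367 ± 160 with CDO1 and 2610 ± 140 in mock (SD, n = 3 each), with no overlap and a log2 fold change of -0.14 (adjusted p = 0.0956, limma, and 0.0405 without mock replicate 2). An annotated readthrough gene covers 62.2% of the NUSAP1 exon sequence, and how the authors' counting treated these reads is not given in the sources used here. TPX2, the activator of AURKA on the spindle, DLGAP5, a kinetochore fibre protein, and HMMR, a pole protein, stood at -0.07, -0.02 and 0.09 on the log2 scale, all with overlapping groups.

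Of the pair most used as markers of dividing cells, 1 rose and 1 did not pass. TOP2A, the topoisomerase that untangles sister chromatids (ENSG00000131747, chromosome 17, 40388516 to 40417950), had 9097, 8946 and 9227 normalised counts with CDO1, against 7857, 7458 and 8347 in mock. It rose by 15.2% in the mean with no overlap, at 0.21 ± 0.05 (SE; adjusted p = 0.00532, limma), and its adjusted p lay between 0.000113 and 0.0419 over the alternatives. MKI67, which encodes the Ki-67 coat of mitotic chromosomes, had 9115, 8842 and 9878 with CDO1, against 9856, 9615 and 9925 in mock. Its lower CDO1 libraries lie beneath the mock range and the third lies within it, and the log2 fold change of -0.08 ± 0.05 (SE) did not pass (adjusted p = 0.3, limma). The difference between the changes of the 2 genes was not tested.

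Neither transcription factor of the programme passed. FOXM1 averaged 2639 ± 111 normalised counts with CDO1 and 2473 ± 33.1 in mock (SD, n = 3 each), with no overlap and a log2 fold change of 0.09 (adjusted p = 0.227, limma). MYBL2 averaged 3171 ± 67.4 with CDO1 and 3115 ± 90.9 in mock, with overlapping groups. ITFG2 on the other strand shares 15.9% of the FOXM1 exon sequence.

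The groups did not overlap in 15 members, 8 higher and 7 lower, which is 41.7% of the list, against 37.1% of all genes tested and 49.4% of the equally abundant genes. The 5 of these that missed the threshold were CCNA2, CDC25C, AURKA and FOXM1, all higher with CDO1, and NUSAP1, lower. Each 95% interval describes its gene alone and rests on the spread among these libraries, which may be technical. For the 26 genes not called, the furthest bound of any interval was a 1.30-fold change, and for 23 of them the interval lay within 1.2-fold in both directions. Per kilobase of exon, the most abundant transcript was CDC20, at 3777 normalised counts per kilobase with CDO1 and 4172 in mock, and the scarcest was CENPE, at 88.0 and 91.0.

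The members that rose and those that fell differed in median base composition but overlapped in range. The 4 that rose had transcripts with a median of 38.7% GC (37.1 to 47.8%), the 6 that fell 51.1% (40.1 to 59.3%) and the 26 not called 45.5%. CENPF and NDC80, which fell, had 40.8% and 40.1% GC. Across the 36 genes the log2 fold change correlated with GC content at -0.31 (Pearson's r) and -0.36 (Spearman's rho), where all points share the same 6 libraries, and at -0.07 and -0.17 after the trend of each library was removed. The libraries themselves differ in this respect. Over the same 10926 genes, each library's deviation from the average of all 6 correlated with GC at a rho of -0.34, 0.00 and -0.27 in CDO1 replicates 1 to 3 and of 0.20, 0.52 and -0.24 in mock replicates 1 to 3. After each library's trend with GC was removed, 7 members were higher and 8 lower, against 15.6% and 14.1% of all genes. Among the 7708 genes at least as abundant as the scarcest member, 2361 were higher and 1272 lower in that fit. CDC20 and CDC25B, with 57.9% and 59.3% GC, did not pass in that fit (adjusted p = 0.125 and 0.293), and the other 8 calls held. CDC25C, FOXM1 and MYBL2 passed as higher, at log2 fold changes of 0.19, 0.13 and 0.13 (adjusted p = 0.0439, 0.0304 and 0.0198, limma). PTTG1, NUSAP1, TPX2 and MKI67 passed as lower, at -0.17, -0.18, -0.10 and -0.10 (adjusted p = 0.0136, 0.00321, 0.0438 and 0.0449, limma). FOXM1 and MYBL2, the activators of the mitotic programme, thus have calls that depend on this setting, as does MKI67.

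**Figure D3:**
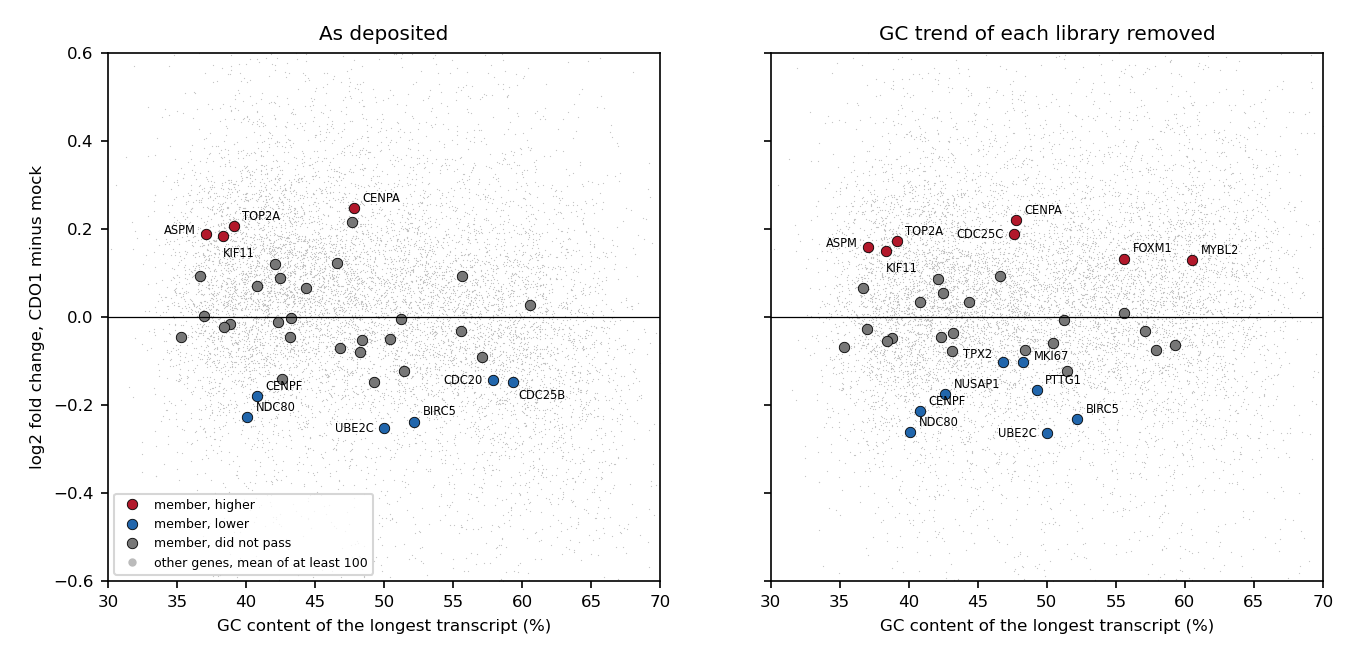
Log2 fold change (CDO1 minus mock) against the GC content of each gene's longest transcript in percent, for the 36 mitosis genes (circles) over all genes of mean 100 or more (grey), as deposited on the left and with each library's GC trend removed on the right. At an adjusted p under 0.05 the left panel has 4 members called higher and 6 lower, and the right panel 7 and 8, with CDC20 and CDC25B no longer past the threshold.

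Further genes of the same processes, in 8 lists, also moved both ways. Of 176 measured, 24 rose, 23 fell and 129 did not pass, with a median log2 fold change of 0.01. The share called, 26.7%, stands against 24% of all genes tested. These counts were 14 higher and 11 lower without CDO1 replicate 1, 12 and 17 without CDO1 replicate 3, and 17 and 12 without mock replicate 1. With all libraries and a minimum fold of 1.2, 8 were called higher and 10 lower, against 18.2% of all genes tested. No mitosis gene passed that minimum. The log2 fold changes in these lists ran from -1.64 to 0.48, wider than the -0.25 to 0.25 of the mitosis genes. Of 17 subunits and regulators of the anaphase-promoting complex, 3 rose and 1 fell (23.5% called). The subunits ANAPC7, ANAPC1 and CDC23 were higher, at 0.27, 0.21 and 0.17 on the log2 scale (adjusted p = 0.000925, 0.00447 and 0.0447, limma). UBE2S, which extends the chains that UBE2C begins, was lower like it, at 6090 ± 343 normalised counts with CDO1 and 7054 ± 310 in mock (SD, n = 3 each; adjusted p = 0.00591, limma). Of 38 other kinetochore, centromere and checkpoint genes 7 rose and 3 fell (26.3% called). CENPK had the largest change among them, with 586, 591 and 590 normalised counts with CDO1, against 398, 415 and 459 in mock (log2 fold change 0.48 ± 0.07 SE, adjusted p = 6.17e-05, limma). CENPU and CENPH, which like CENPK belong to the constitutive centromere network next to CENPA nucleosomes, rose by 0.32 and 0.28 on the log2 scale (adjusted p = 0.00147 and 0.00256, limma), and BUB3, a checkpoint protein, fell by 0.19 (0.0073). Of the same network, looked up after these values were seen, CENPI also passed, at 0.24 (0.0272), while CENPC, CENPL, CENPM, CENPN, CENPO, CENPP, CENPQ, CENPT and CENPW did not, at -0.07 to 0.16 on the log2 scale. CENPI did not pass by DESeq2 (adjusted p = 0.0689) or with equal library totals (0.0526, limma). With the GC trend removed CENPM passed as higher (adjusted p = 0.000271, limma). In limma the call of CDC23 was lost without CDO1 replicate 2 or 3 or mock replicate 1 or 2 (adjusted p up to 0.158), that of UBE2S without CDO1 replicate 1 (0.0577) and that of BUB3 without CDO1 replicate 1 (0.0555) or mock replicate 1 (0.0532).

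Of 31 other spindle, centrosome and cytokinesis genes 2 rose and 4 fell, 19.4% called, against 24% of all genes tested. PIMREG, the kinesins KIF14 and KIF22 and the cytokinesis factor ECT2 were at -0.28, -0.27, -0.19 and 0.20 on the log2 scale (adjusted p = 0.00554, 0.00672, 0.0352 and 0.0254, limma). Without CDO1 replicate 1 PIMREG did not pass (0.058), nor did KIF14 without CDO1 replicate 2 (0.0505), and ECT2 and KIF22 did not pass without CDO1 replicate 1 or 3 or mock replicate 1 or 2 (up to 0.151 and 0.211). Condensin and cohesin genes gave 5 of 18 higher and 3 lower, 44.4% called. Among genes at least as abundant as the scarcest mitosis gene 35.7% were called. SMC2 and SMC4, the core pair of condensin, rose, SMC2 to 3132 ± 111 normalised counts with CDO1, against 2395 ± 158 in mock, and SMC4 to 3702 ± 180, against 3155 ± 122 (SD, n = 3 each; adjusted p = 2.89e-05 and 0.00323, limma). STAG2 of cohesin rose 1.23-fold (adjusted p = 0.000272) while NCAPH2 of condensin II was at 0.82-fold of mock (0.00284). Of 9 mitotic entry regulators 3 rose and none fell (33.3% called). With the GC trend removed CKS2, a CDK-binding protein, passed as lower (adjusted p = 0.039, limma), and edgeR called CCNF, the cyclin F gene, lower (adjusted p = 0.0371). Both were named after their values were seen. MASTL, the Greatwall kinase, had 834, 843 and 856 normalised counts with CDO1, against 634, 580 and 707 in mock, and its substrate ENSA and the phosphatase CDC25A rose by 0.22 and 0.20 on the log2 scale (adjusted p = 0.00029, 0.00331 and 0.0161 for MASTL, ENSA and CDC25A, limma). CDC25A did not pass without CDO1 replicate 2 (0.056) or 3 (0.0664).

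**Figure D4:**
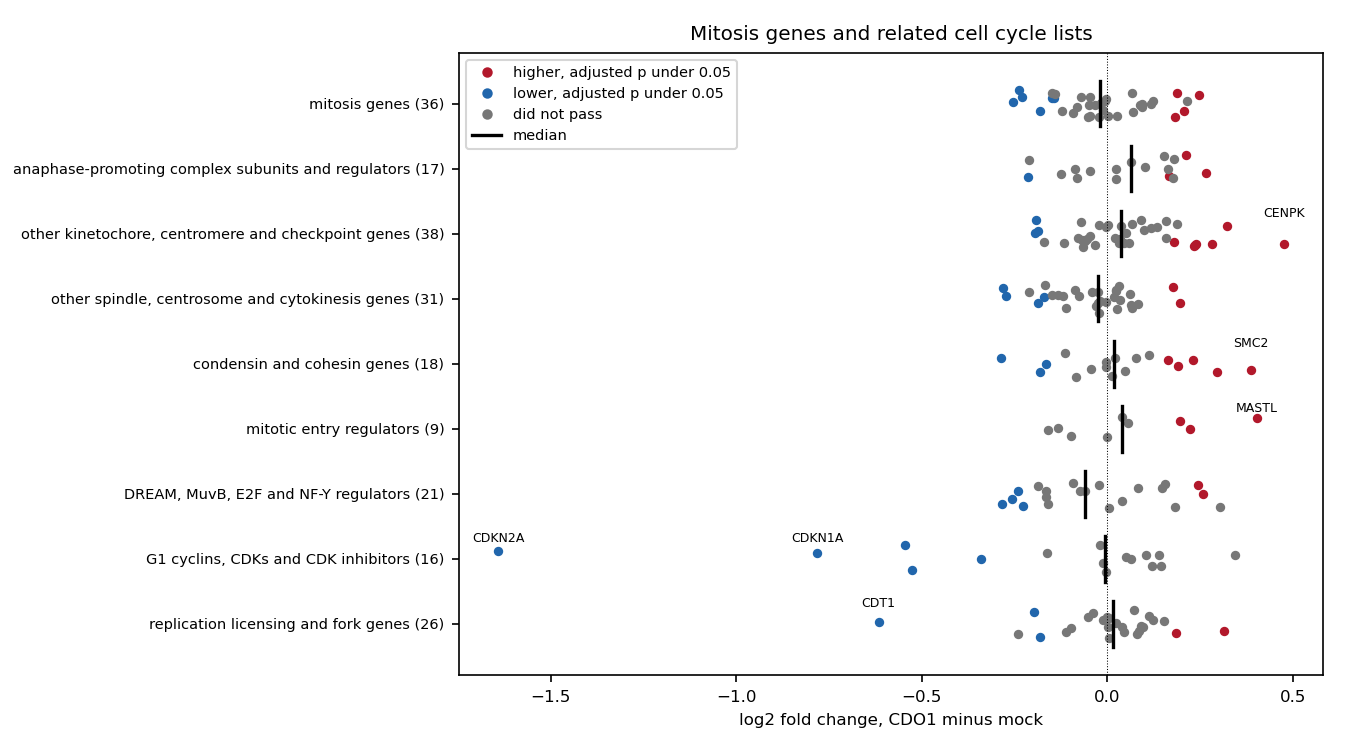
Log2 fold change (CDO1 minus mock) of the 36 mitosis genes and of 8 related lists, with the number of genes in parentheses, red and blue points past an adjusted p of 0.05 and black bars at the medians. The list medians lie between -0.06 and 0.06, and the points furthest from 0 are the inhibitors CDKN2A and CDKN1A and the licensing factor CDT1, all lower.

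Regulators upstream of the mitotic promoters differed in part. RBL2, the pocket protein p130 of the DREAM complex, was higher at 849, 861 and 772 normalised counts with CDO1, against 750, 627 and 720 in mock (log2 fold change 0.25 ± 0.07 SE, adjusted p = 0.0196, limma). NFYA, the subunit of NF-Y that reads CCAAT boxes, was lower at 748, 762 and 834 with CDO1, against 967, 845 and 933 in mock (-0.23 ± 0.07 SE, adjusted p = 0.0204, limma). Neither NFYB nor NFYC passed, at -0.02 and 0.00 on the log2 scale. E2F4, RBL1, LIN9, LIN37, LIN52 and LIN54, the other DREAM and MuvB subunits looked at, had log2 fold changes of -0.06, 0.04, 0.16, 0.18, -0.16 and 0.15 and did not pass either, LIN37 from a mean of only 9.71 normalised counts with CDO1 and 8.45 in mock. RBBP4, the histone-binding MuvB subunit, fell to 2734 ± 110 with CDO1, against 3330 ± 197 in mock (SD, n = 3 each; adjusted p = 0.000701, limma). Among E2F family genes, E2F7 and the dimer partner TFDP2 were lower, at -0.26 and -0.24 on the log2 scale, and E2F8 was higher, at 0.26 (adjusted p = 0.00672, 0.00825 and 0.0177, limma). In limma RBL2 did not pass without CDO1 replicate 1 or 2 or mock replicate 2 (adjusted p up to 0.0918), NFYA without CDO1 replicate 1 or 2 or mock replicate 1 (up to 0.138), TFDP2 without CDO1 replicate 1 (0.0589) and E2F8 without CDO1 replicate 1 or 3 or mock replicate 2 (up to 0.0993). In all, 2 of these 21 regulators rose and 4 fell, 28.6% called, against 24% of all genes tested.

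The largest cell cycle changes lay in genes of G1. Of 16 G1 cyclins, CDKs and CDK inhibitors 5 fell and none rose in the limma fit of the deposited values, against 12.7% and 11.3% of all genes, and edgeR gave the same counts. With the GC trend removed 2 passed as higher, CCND1 at 0.11 and CDKN1C at 0.21 on the log2 scale (adjusted p = 0.0245 and 0.0213, limma), both named after their values were seen. CDKN2A, the locus of p16 and p14ARF, had 149, 170 and 180 normalised counts with CDO1, against 496, 582 and 484 in mock. That is 0.319-fold of mock, far outside the spread of either group (log2 fold change -1.64 ± 0.10 SE, adjusted p = 1.42e-10, limma), and a count per gene does not tell its transcripts apart. CDKN1A, which encodes p21, had 1467, 1515 and 1398 with CDO1, against 2425, 2618 and 2492 in mock (-0.78 ± 0.06 SE, adjusted p = 1.63e-09, limma). CDKN2C, the p18 inhibitor, and CDK6, a kinase that these p16-family proteins block, had log2 fold changes of -0.55 and -0.34 (adjusted p = 0.00241 and 0.000159, limma). Of 26 replication genes 2 rose and 3 fell, 19.2% called, against 24% of all genes tested. CDT1, which loads the replicative helicase, had 1845, 1901 and 1959 with CDO1, against 2909, 3141 and 2707 in mock (-0.62 ± 0.06 SE, adjusted p = 1.11e-07, limma), and RRM1 and MCM6 rose by 0.31 and 0.19 (0.000194 and 0.0151). MCM6 did not pass without CDO1 replicate 1 or 3 or mock replicate 2 (adjusted p up to 0.0937, limma). The lower levels of these inhibitor transcripts stand beside the 36 mitosis genes, each of which changed by less than 20% in the mean. Some mitotic genes of the related lists, CENPK and SMC2 among them, changed by more.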

How the data were processed

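RNA-seq of 6 KM12 libraries was analysed from 1 deposited table. The authors' tools were STAR 2.5.1b and DESeq2 1.10.1 with the GRCh38 build, per the submitters' processing notes, while neither counter nor strand setting nor annotation release is stated there. The deposited signal values are gene counts divided by a size factor per library, read from the values: every value (100%) is a whole multiple of what 1 read is worth, to within 0.001 of a read. The table also carries the authors' own log2 fold change and p-value for each gene, raw and adjusted, per the file headers.

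Because the values were normalised, limma 3.58.1 with a mean-variance trend was run on log2(value + 1), keeping genes whose mean reached 1 and modelling the group alone. For genes low in both groups this scale gives too small a fold change. For a gene at 0 in some libraries of 1 group only, such as CDO1, this scale can give a larger log2 fold change (9.18, against 6.71 by DESeq2). Alternatives were edgeR 4.0.16 and DESeq2 1.42.0 on recovered reads, other filters, pseudocounts, scalings and thresholds, removal of a lowess trend with GC content (span 0.3) from every library, protein-coding genes only, a replicate block and leaving out each library. Names came from a table that holds 26577 of the identifiers, and positions, exon lengths and GC content of the longest transcript from GENCODE release 29. Promoters are RefSeq's on GRCh38.p14. All 36 members could be named, and from each related list up to 4 genes past the threshold with the smallest adjusted p, plus CDO1, CDKN1A and the DREAM and NF-Y subunits. E2F4, RBL1 and RBL2 belong to that last set. The members and lists were chosen with earlier results of these data known. Limits from counts cover counting error only.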

Additional observations from a re-analysis of the deposited data

How the results depend on the processing

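The counts of called members moved with the library left out, from 1 to 6 higher and from 2 to 7 lower, as did those of the related lists, from 12 to 28 higher and from 11 to 25 lower. Over all genes they ran from 1752 to 2584 higher and from 2093 to 2863 lower, and the median log2 fold change of the members from -0.06 to 0.02. Each such fit has fewer libraries. At an adjusted p of 0.01, 1 member was higher and 2 lower, with 11 and 13 in the related lists and 1543 genes higher over the table. With a minimum fold of 1.2 no member passed in either direction (0 and 0), and 8 and 10 genes of the related lists did. With the GC trend removed 7 members were higher. With equal library totals, over all genes, 2069 were higher and 3079 lower, against 2467 and 2762 as first fitted and 3362 and 3033 with the GC trend removed. For members the split was 4 and 8 with equal totals.

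Same-numbered libraries had correlations of deviations of 0.08, 0.30 and 0.09. CDO1 replicates 2 and 3 each correlated best with the mock library of the same number, and CDO1 replicate 1 with mock replicate 3 (0.19). The main fit did not take the numbers as pairs, and a replicate block was run as an alternative. With a replicate block 5 members were higher and 8 lower, and with the block and the GC trend removed 7 and 9.

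Members and regulators near 0 changed sign without being called in either fit. CDK1 was at -0.025 with equal totals and at -0.027 with the GC trend removed, with or without the replicate block. AURKB was at 0.0076 and E2F4 at 0.024 with the GC trend removed, again with or without the block. MYBL2 was at -0.00054 and NFYC at -0.022 with equal totals. With each library left out in turn, the log2 fold change ran from -0.088 to 0.017 for CCNB1, -0.029 to 0.042 for CDK1, -0.057 to 0.0047 for AURKB, -0.035 to 0.027 for BUB1B, -0.038 to 0.027 for CDCA3 and -0.096 to 0.0015 for CENPE. It ran from -0.061 to 0.024 for NUF2, -0.078 to 0.063 for KIF23, -0.088 to 0.052 for DLGAP5, -0.041 to 0.11 for RBL1, -0.061 to 0.0052 for NFYB and -0.030 to 0.035 for NFYC. The cause was not tested. With 3 libraries a group the SEs ran from 0.05 to 0.08, and at the upper end CDC25C, changed by 16.3%, was not called.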

Other observations

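In single mock libraries most of the 36 genes lay on the same side of their mock mean. In mock replicate 3, 30 of the 36 lay above their own mock mean, with a median deviation of 0.06 on the log2 scale, and in mock replicate 2, 9 of them did, with a median of -0.05. The mock mean includes the library compared, and the same count over all genes was not made. Whether other genes do the same is thus not shown. Mock replicates 2 and 3 also differed in their correlation with GC over all genes (rho 0.52 and -0.24), and its part here was not tested. In CDO1 replicates 1, 2 and 3, 16, 13 and 19 lay above the mock mean, with medians of -0.02, -0.05 and 0.01. The spread within mock is thus wider than the difference between the groups' mean deviations, which were -0.02 ± 0.03 with CDO1 and 0.00074 ± 0.05 in mock (SD, n = 3 each).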
